A study of Mus musculus with 14 samples.

Results

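Iron transport and storage in mouse dorsal root ganglia was described through 10 genes: Trf, Tfrc, Slc11a2, Slc40a1, Cp, Fth1, Ftl1, Hmox1, Ireb2 and Aco1. They were taken by symbol from a series of 2 tables of gene counts, of 20833 symbols and 56691 genes, and each of the 10 had 1 row in both. In the first table, 3 libraries carried the label P75f/f knockout and 3 carried floxed alleles of Ngfr, the gene of the p75 neurotrophin receptor (P75f/f). In the second, 4 libraries came from 5xFAD mutants and 4 from wild-type mice. 5xFAD mice model Alzheimer disease with mutant human transgenes driven by the neuronal Thy1 promoter. The labels give the tissue as dorsal root ganglion and the cell type as sensory neurons. They give no age, sex, cohort or Cre driver, and they do not say that replicates are separate animals, so the p-values reflect only how these samples vary, possibly for technical reasons. The genes were chosen by symbol with the p75 comparison known, in which Trf stood lower in the knockout, and Trf was selected on that fold change. The values of that comparison are therefore a description and carry no test, and the tests below concern 5xFAD against wild type.

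Transferrin, the product of Trf, carries ferric iron in extracellular fluid, and cells take it up through the transferrin receptor encoded by Tfrc. In the endosome the iron is reduced and passes into the cytosol through the divalent metal transporter encoded by Slc11a2. Iron that is not used is stored inside ferritin, a shell built of heavy chains (Fth1), which oxidise iron, and light chains (Ftl1). Ferroportin (Slc40a1) is the exporter of iron from cells, and ceruloplasmin (Cp), a copper ferroxidase, oxidises the exported iron so that transferrin can bind it. Heme oxygenase 1 (Hmox1) releases iron from heme and is induced by heme and oxidative stress. Iron regulatory proteins, encoded by Aco1 and Ireb2, bind hairpins in mRNA called iron-responsive elements when iron is low. Such binding blocks translation from an element in the 5′ UTR and protects the mRNA from an element in the 3′ UTR, so an iron signal may change the mRNA of the receptor and the protein of ferritin. In the nervous system transferrin mRNA is known mainly from glia and from the choroid plexus.

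The elements are shown because they are the mRNA sequences through which this switch acts, and the search below found them in 4 of the 10 genes. GENCODE M21 transcripts (build GRCm38) were searched for a bulged C, an upper stem of 5 pairs, G with U pairs allowed, a lower stem with at least 4 of 5 pairs, and a loop that starts with CAGTG and ends in A, C or T. The pattern occurred in 24 of 21901 protein-coding genes (0.11%), among them 4 of the 10 iron genes, with 7 sites. Capitals mark the loop of 6 bases, and all are written 5′ to 3′ on the transcript strand.
Fth1, 5′ UTR, chr19:9982733-9982759, plus strand: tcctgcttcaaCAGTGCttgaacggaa
Ftl1, 5′ UTR, chr7:45459780-45459806, minus strand: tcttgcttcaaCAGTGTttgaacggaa
Slc40a1, 5′ UTR, chr1:45925466-45925492, minus strand: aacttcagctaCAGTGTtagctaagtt
Tfrc, 3′ UTR, chr16:32631220-32631246, plus strand: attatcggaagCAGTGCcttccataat
Tfrc, 3′ UTR, chr16:32631599-32631625, plus strand: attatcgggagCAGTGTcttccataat
Tfrc, 3′ UTR, chr16:32631664-32631690, plus strand: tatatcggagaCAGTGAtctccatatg
Tfrc, 3′ UTR, chr16:32631711-32631737, plus strand: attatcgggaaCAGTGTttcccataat
The ferritin and ferroportin sites lay near the start of the transcript and the 4 sites of Tfrc in its 3′ UTR. In the other 6 genes no match says only that these letters were not found by this search, and a match is a description of the sequence, not a measured binding site.

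Levels are given as CPM, the deposited count of a gene per 1000000 counts of its library. Total counts were 4731119 to 6052690 in the p75 table and 13907070 to 19837836 in the 5xFAD table. Ngfr, which encodes p75, stood at 22.5 to 35.9 CPM in the knockout libraries and at 87.7 to 135 CPM in the floxed ones. All 13 neuronal markers checked were detected in both tables, beside those of Schwann cells, satellite glia, macrophages, fibroblasts and vessels, so the libraries were not of neurons alone. Libraries stood apart by number in both tables. With genotype in the model, 3184 of 15845 genes differed between replicates 3 and 4 and replicates 1 and 2 of the 5xFAD table, and 3623 of 11890 between replicate 3 and the others of the p75 table (edgeR, adjusted p under 0.05), or 20.1% and 30.5%. The labels name no batch behind these sets, and both genotypes occur in each, so results are given over all libraries and within the sets.

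In 5xFAD ganglia Slc40a1, ferroportin, fell to 60.7% of its wild-type mean and was the 1 gene of 10 that passed the test over all 8 libraries. The genes of iron carriage, uptake, oxidation, storage and heme breakdown had group means of 61.3% to 83.9% of wild type, and those of the endosomal transporter and the sensors of 91.9% to 101%. Across all genes tested 3.6% passed, 1.04% as lower. Trf, Fth1 and Slc40a1 had groups that did not overlap, each lower in 5xFAD, which held for 4.59% of all genes. Of the 10 genes 8 had a log2 fold change below 0, and their median was -0.36, beside 0.00 for the 15845 genes tested (0.001935 before rounding). With the set of replicates as a term in the model, 5 of the 10 were called lower and 0 higher, beside 4.3% and 7.48% of all genes. Those 5 were Slc40a1, Fth1, Ftl1, Tfrc and Hmox1. With the replicate number as a block 3 were called lower (Slc40a1, Fth1 and Ftl1), beside 3.6% of all genes lower and 6.63% higher, and with DESeq2 3 (Slc40a1, Fth1 and Hmox1), beside 2.38% lower and 4.11% higher.

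**Figure D1:**
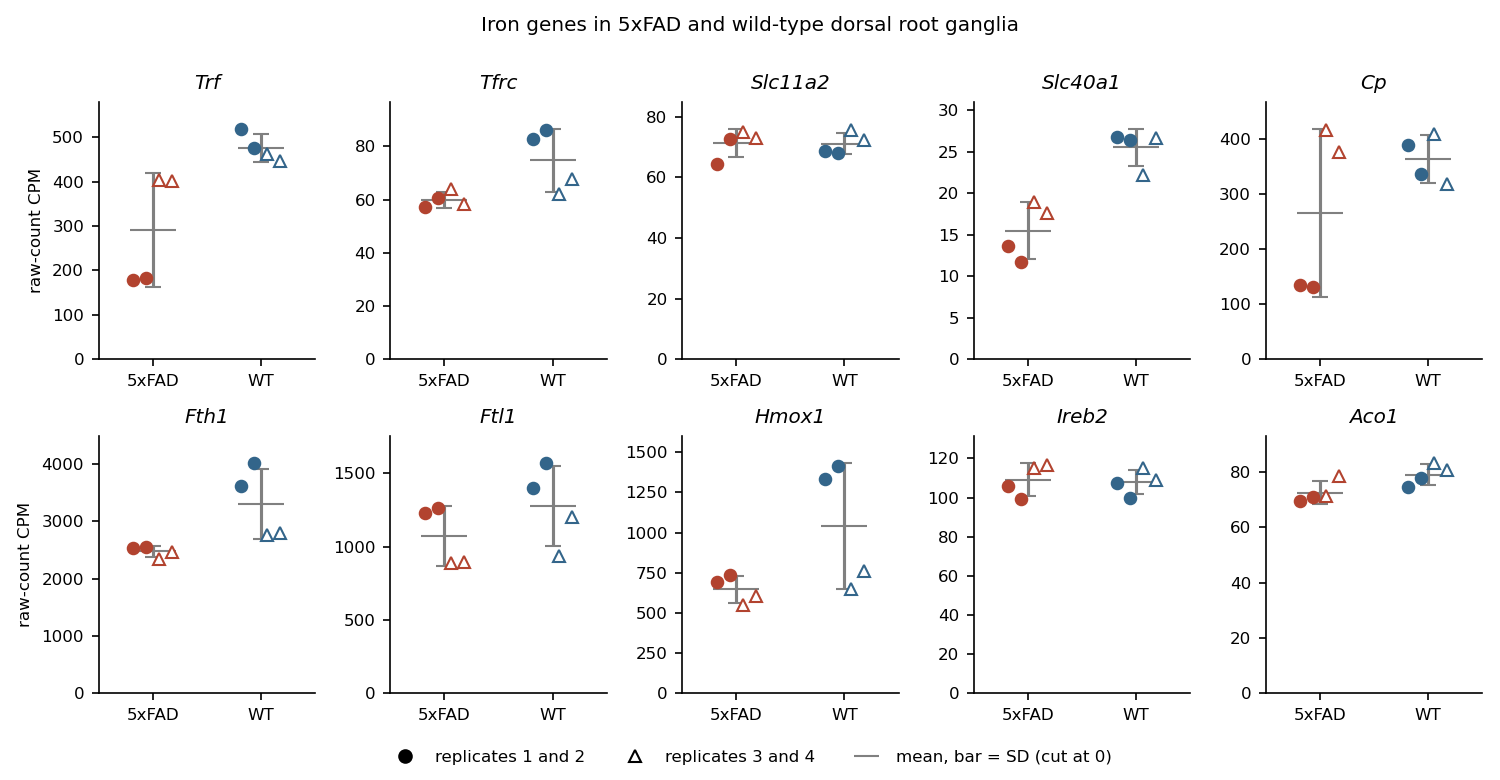
Raw-count CPM of the 10 iron genes in 4 libraries of 5xFAD ganglia (left in each panel) and 4 of wild-type ganglia (right). Filled circles are replicates 1 and 2, open triangles replicates 3 and 4, and grey marks the mean with its SD. Trf, Fth1 and Slc40a1 do not overlap between the genotypes, and the 5xFAD libraries of replicates 1 and 2 hold the lowest Trf and Cp.

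Trf, the extracellular carrier, stood at 178, 184, 405 and 402 CPM in 5xFAD replicates 1 to 4 and at 518.5, 477, 464 and 446 CPM in wild-type replicates 1 to 4. Every 5xFAD library lay below every wild-type library, but replicates 3 and 4 of 5xFAD lay close to the wild-type group, far above replicates 1 and 2. The means were 292 ± 128 CPM in 5xFAD and 476 ± 30.8 CPM in wild type (SD, n = 4 each), or 61.3% of wild type. The log2 fold change was -0.69 (SE 0.31) and did not pass edgeR's quasi-likelihood test (adjusted p = 0.331). An exact two-sided permutation test of the log2 levels gave p = 0.0286, which is the lowest value available with 4 libraries in each group. Groups that do not overlap always give that value, and it is not adjusted over the 10 genes. This permutation test gave p of 0.0571 for Tfrc, 0.0857 for Aco1, 0.114 for Hmox1, 0.257 for Ftl1, 0.343 for Cp and 0.886 for Ireb2. Within replicates 1 and 2 the log2 fold change of Trf was -1.46 (SE 0.07, edgeR adjusted p = 5.38e-10), and within replicates 3 and 4 it was -0.17 (SE 0.06, edgeR adjusted p = 0.178). The difference of 1.28 between these effects (SE 0.09) passed a test of genotype by set, which was added after the data were seen (edgeR adjusted p = 3.68e-06). That test called 3 of the 10 genes (Trf, Cp and Hmox1), beside 1.19% of all genes, 0.953% with a positive difference like these and 0.24% with a negative one. In RNA of mixed cells fewer cells of a type and less RNA per cell cannot be told apart.

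Tfrc, the receptor through which cells take up transferrin, stood at 57.15, 60.45, 63.8 and 58.2 CPM in 5xFAD and at 82.9, 86.25, 61.9 and 67.6 CPM in wild type. Replicates 1 and 2 of wild type were the highest, and wild-type replicate 3 fell inside the 5xFAD range. The means were 59.9 ± 2.94 CPM in 5xFAD and 74.7 ± 11.7 CPM in wild type (SD, n = 4 each). A log2 fold change of -0.31 (SE 0.10) was not called over all libraries by edgeR (adjusted p = 0.144). It passed with the set as a term, at -0.30 (SE 0.08, edgeR adjusted p = 0.0358), and within replicates 1 and 2, at -0.52 (SE 0.08, edgeR adjusted p = 2.00e-04). Within replicates 3 and 4 the value was -0.08 (SE 0.08). Slc11a2, which moves iron out of the endosome, stood at 64.45 to 74.9 CPM in 5xFAD and at 67.9 to 75.6 CPM in wild type. The ranges overlapped almost fully, and the log2 fold change was 0.01 (SE 0.07, edgeR adjusted p = 0.969).

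Slc40a1, the iron exporter, stood at 13.6, 11.7, 19.0 and 17.6 CPM in 5xFAD and at 26.8, 26.4, 22.2 and 26.6 CPM in wild type. All 5xFAD libraries were below all wild-type libraries, and replicates 1 and 2 of 5xFAD were again the lowest. The means were 15.5 ± 3.41 CPM in 5xFAD and 25.5 ± 2.20 CPM in wild type (SD, n = 4 each). Slc40a1 fell, with a log2 fold change of -0.71 (SE 0.15, edgeR adjusted p = 0.0314). An exact permutation test (two-sided) gave p = 0.0286, the lowest these groups allow. The effect was -1.07 (SE 0.13) within replicates 1 and 2 and -0.41 (SE 0.13) within replicates 3 and 4. The value of replicates 3 and 4 was not called by edgeR (adjusted p = 0.114), and the difference between the sets did not pass either (0.65, SE 0.18, edgeR adjusted p = 0.121). The call was lost when 5xFAD replicate 1, 2 or 4 or wild-type replicate 1, 2 or 4 was left out, with adjusted p of 0.0501 to 0.105 from edgeR and log2 fold changes of -0.60 to -0.79.

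Cp, the ferroxidase that works beside ferroportin, stood at 135, 132, 417 and 376 CPM in 5xFAD and at 389.5, 336, 409.6 and 319 CPM in wild type. As with Trf, replicates 1 and 2 of 5xFAD were low, but here replicates 3 and 4 lay within or above the wild-type range. The log2 fold change over all libraries was -0.44 (SE 0.42, edgeR adjusted p = 0.676). It was -1.44 (SE 0.08, edgeR adjusted p = 3.33e-09) within replicates 1 and 2 and 0.12 (SE 0.14, edgeR adjusted p = 0.767) within replicates 3 and 4. The difference between the sets was 1.56 (SE 0.18, edgeR adjusted p = 0.00732).

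Fth1, the ferritin heavy chain, stood at 2538, 2556, 2336 and 2475 CPM in 5xFAD and at 3617, 4012, 2770.0 and 2802 CPM in wild type. The 5xFAD libraries lay close together and below all wild-type libraries, of which replicates 1 and 2 were the highest. The means were 2476 ± 99.7 CPM in 5xFAD and 3300.0 ± 616 CPM in wild type (SD, n = 4 each). The log2 fold change was -0.40 (SE 0.11, edgeR adjusted p = 0.0877), with an exact two-sided permutation p of 0.0286. With the set as a term Fth1 was called lower, at -0.39 (SE 0.07, edgeR adjusted p = 0.00253). The values within the sets were -0.58 (SE 0.07) in replicates 1 and 2 and -0.21 (SE 0.06) in replicates 3 and 4.

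Ftl1, the ferritin light chain, stood at 1229, 1267, 890.1 and 898 CPM in 5xFAD and at 1397, 1568, 936 and 1204 CPM in wild type. The groups overlapped because replicates 3 and 4 were lower than replicates 1 and 2 in both, yet in each number the 5xFAD library was the lower. Its log2 fold change was -0.24 (SE 0.17, edgeR adjusted p = 0.539). With the set as a term it was -0.25 (SE 0.07) and passed (edgeR adjusted p = 0.0314). The effect was alike in size in the sets, at -0.25 (SE 0.07) in replicates 1 and 2 and -0.26 (SE 0.11) in replicates 3 and 4. Reads of the ferritin genes can match pseudogene copies, of which Ftl1-ps1 held 726 to 1769 counts per library here.

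Hmox1, the stress-induced enzyme of heme breakdown, stood at 695, 735, 552 and 608 CPM in 5xFAD and at 1335, 1414, 649 and 763 CPM in wild type. Replicates 1 and 2 of wild type stood far above the other 6 libraries, and wild-type replicate 3 lay inside the 5xFAD range. The means were 648 ± 82.6 CPM in 5xFAD and 1040.0 ± 390.1 CPM in wild type (SD, n = 4 each). Its log2 fold change of -0.67 (SE 0.25) was not called by edgeR over all libraries (adjusted p = 0.237). It passed with the set as a term, at -0.61 (SE 0.15, edgeR adjusted p = 0.0478). The effect was -0.94 (SE 0.07) within replicates 1 and 2 and -0.28 (SE 0.08) within replicates 3 and 4, and the difference of 0.65 (SE 0.11) passed (edgeR adjusted p = 0.00501).

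The sensors were not called between the genotypes in any fit of these libraries. Ireb2, which encodes iron regulatory protein 2, stood at 99.0 to 117 CPM in 5xFAD and at 99.8 to 115 CPM in wild type, with a log2 fold change of 0.02 (SE 0.07). Aco1, the cytosolic aconitase that becomes iron regulatory protein 1 when it loses its cluster, stood at 69.5 to 78.5 CPM in 5xFAD and at 74.4 to 83.0 CPM in wild type. Its groups overlapped, and its log2 fold change was -0.11 (SE 0.07, edgeR adjusted p = 0.434).

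**Figure D2:**
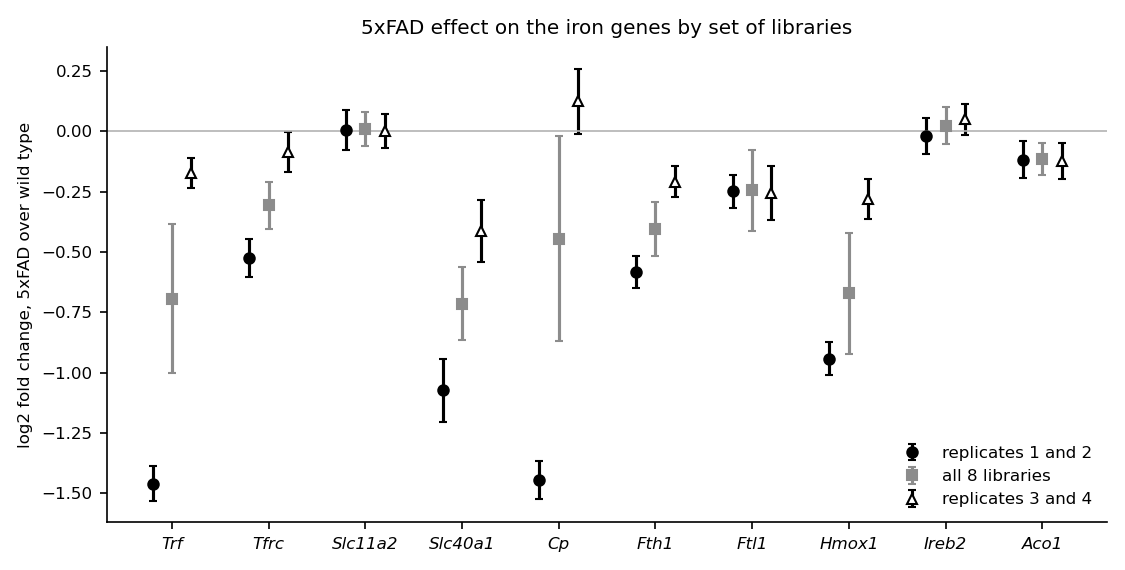
Log2 fold change of 5xFAD over wild type for each iron gene, fitted in replicates 1 and 2 (black circles), all 8 libraries (grey squares) and replicates 3 and 4 (open triangles), with bars of 1 SE. Trf and Cp lie near -1.46 and -1.44 in replicates 1 and 2 and near 0 in replicates 3 and 4, while Ftl1, Slc11a2, Ireb2 and Aco1 lie alike in the sets.

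Within replicates 1 and 2 alone, 7 of the 10 genes were called lower and 0 higher (Trf, Cp, Hmox1, Fth1, Slc40a1, Tfrc and Ftl1), beside 6.45% and 6.38% of all genes. Within replicates 3 and 4 alone 0 were called, beside 1.29% of all genes lower and 3.51% higher. Between the sets themselves, with genotype in the model, Ftl1 (-0.45), Fth1 (-0.24) and Hmox1 (-0.60) were lower and Ireb2 (0.17) higher in replicates 3 and 4, so 4 of the 10 were called beside 20.1% of all genes.

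Per kb of transcript, the levels of the 10 genes spanned a wide range. Fth1 was the highest, at 2665 ± 107 CPM per kb in 5xFAD and 3553 ± 663 CPM per kb in wild type (SD, n = 4 each). Next came Ftl1, at 1106 ± 212 in 5xFAD and 1319 ± 280.2 in wild type, and Hmox1, at 413 ± 52.7 in 5xFAD and 663 ± 249 in wild type, on the same scale. Trf followed at 114 ± 49.9 CPM per kb in 5xFAD and 185 ± 11.97 in wild type, and Cp at 65.75 ± 37.9 in 5xFAD and 90.2 ± 10.7 in wild type. Slc11a2, Aco1, Ireb2 and Tfrc lay between 12.2 and 23.5 CPM per kb in the group means. Among them Aco1 and Ireb2, at 18.9 ± 1.07 and 18.9 ± 1.43 CPM per kb in 5xFAD (SD, n = 4 each), did not differ beyond their spread. Slc40a1 was the lowest, at 4.59 ± 1.01 CPM per kb in 5xFAD and 7.56 ± 0.652 in wild type.

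Marker sums of cell types differed between these libraries too, in differing directions. The 13 macrophage markers summed to 138.5, 88.8, 451 and 354 CPM in 5xFAD replicates 1 to 4 and to 380, 396.5, 528 and 447 CPM in wild type. The sum was lowest in the same 5xFAD libraries, replicates 1 and 2, in which Trf, Cp and Slc40a1 were lowest. Of these markers 11 were tested, 0 called and 11 below 0, with a median of -0.58, and none was at 0 in all libraries. Fibroblast markers were lowest in the same libraries, so this was not particular to macrophages. They summed to 2475, 2369, 5675 and 4304 CPM in 5xFAD replicates 1 to 4 and to 3447, 2524, 5422 and 4054 CPM in wild type. Replicates 1 and 2 were thus the lower ones in wild type too, where Trf was highest. Satellite glia markers summed to 1746, 1779, 2073 and 2104 CPM in 5xFAD replicates 1 to 4 and to 1377 to 1809 CPM in wild type. Mural markers summed to 1295 to 1736 CPM in 5xFAD and 1198 to 1784 CPM in wild type. Neuronal markers summed to 1181 to 1267 CPM in 5xFAD and to 639 to 812 CPM in wild type. Of these 10 of 13 were called higher, beside 2.56% of all genes. Schwann cell markers summed to 4734, 4725, 5919 and 6356 CPM in 5xFAD replicates 1 to 4 and to 2719 to 4750 CPM in wild type. Within 5xFAD the sums of satellite glia and Schwann cells were lower in replicates 1 and 2, as Trf was. Endothelial markers summed to 1006, 1062, 669 and 619 CPM in 5xFAD replicates 1 to 4 and to 964 to 1430 CPM in wild type. Within 5xFAD their order was thus opposite to that of Trf, with the higher sums in replicates 1 and 2. Red blood cell markers summed to at most 11.1 CPM in any of these libraries, and Slc4a1 and Epb42 were at 0 in all. With the set as a term 12 of 13 neuronal, 8 of 14 Schwann cell and 3 of 10 satellite glia markers were called higher, beside 7.48% of all genes. Called lower were 4 of 10 endothelial, 2 of 11 macrophage and 1 of 10 satellite glia markers, beside 4.3% of all genes. The part of any of these cells in the iron genes' values was not tested.

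**Figure D3:**
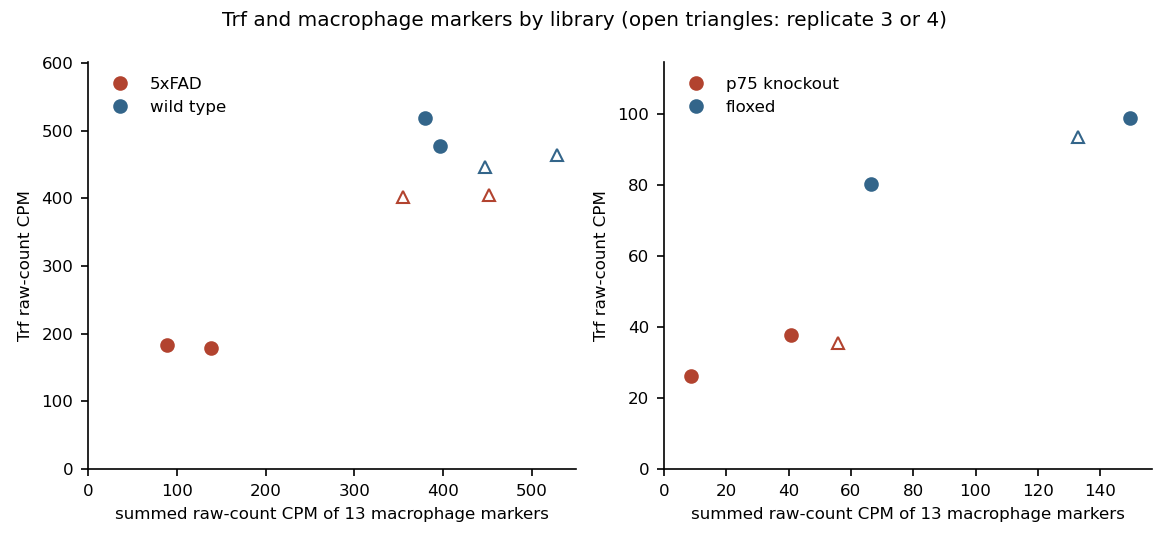
Trf raw-count CPM against the summed raw-count CPM of 13 macrophage markers in each library of the 5xFAD table (left) and the p75 table (right). Filled circles are replicates 1 and 2 and open triangles replicate 3 or 4. The 5xFAD libraries of replicates 1 and 2, at 178 and 184 CPM of Trf, hold the lowest marker sums of their table, 138.5 and 88.8 CPM.

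Other genes of iron and heme handling were read in 7 lists, beside the 1.04% of all genes called lower and 2.56% called higher. Of the genes of export and systemic control 10 were tested, 10 lay below 0 (median -0.16) and 1 was called lower. This was Heph, hephaestin, a membrane ferroxidase that works with ferroportin. Heph stood at 9.84, 10.2, 13.3 and 12.9 CPM in 5xFAD and at 30.5, 29.4, 22.7 and 21.2 CPM in wild type, without overlap. Its log2 fold change was -1.15 (SE 0.15, edgeR adjusted p = 0.00284), larger in size than that of any of the 10 iron genes. It was called within replicates 1 and 2 (-1.58, SE 0.13) and within replicates 3 and 4 (-0.74, SE 0.13, edgeR adjusted p = 0.0053), and whichever library was left out.

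Of the genes of uptake and reduction, 11 were tested and 1 called lower, Steap3, the reductase that prepares iron for endosomal export. Steap3 stood at 29.7 to 38.5 CPM in 5xFAD and at 42.6 to 46.9 CPM in wild type, a log2 fold change of -0.39 (SE 0.09, edgeR adjusted p = 0.0416). Of heme synthesis 11 were tested and 1 called lower, Alas1, the first enzyme of the pathway, at 42.4 to 49.4 CPM in 5xFAD and 54.4 to 65.7 CPM in wild type (log2 fold change -0.34, SE 0.07, edgeR adjusted p = 0.0324). Of heme transport and breakdown 11 were tested, 10 lay below 0 and 2 were called lower. These were Pgrmc1, a heme-binding membrane protein (-0.42, SE 0.09, edgeR adjusted p = 0.0274), and Abcg2, an exporter of porphyrins and drugs (-0.50, SE 0.11, edgeR adjusted p = 0.033). The groups did not overlap in any of these genes, while 4.59% of all genes lay lower without overlap. The genes were named because they passed the test on the same libraries, so this adds no separate support.

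The list of oxidative stress genes held targets of Nrf2, the factor that also drives Hmox1 and ferritin. The list also held Nfe2l2, which encodes Nrf2, and its regulators and partners Keap1, Bach1 and Mafg, so its counts cover both. Of its 14 genes tested 11 lay below 0, with a median of -0.09, and 1 was called lower. This was Gclc, the catalytic subunit of the first enzyme of glutathione synthesis, at 134 to 150.1 CPM in 5xFAD and 175 to 256 CPM in wild type (log2 fold change -0.57, SE 0.12, edgeR adjusted p = 0.0268). With the set as a term 6 of 14 were called lower and 0 higher, beside 4.3% and 7.48% of all genes. They were Nqo1, a quinone reductase (-0.51, SE 0.05), Gclc (-0.56, SE 0.08), Prdx1, a peroxiredoxin (-0.49, SE 0.07), Slc7a11, the cystine transporter (-0.50, SE 0.07), Txnrd1, thioredoxin reductase (-0.28, SE 0.06), and Gclm, the partner of Gclc (-0.33, SE 0.08). Nqo1 was called within replicates 1 and 2 (-0.52, SE 0.07) and within replicates 3 and 4 (-0.51, SE 0.06) alike. Genes in the other lists called by that fit beside those already named were Slc48a1, Cd163, Furin and Id1, all lower, and Slc22a17, higher.

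The remaining lists held no call. Of cytosolic handling and ferritin turnover 8 genes were tested, with a median of -0.04. The smallest p values were those of Ncoa4, which delivers ferritin to lysosomes (-0.19, SE 0.09, edgeR adjusted p = 0.314), and Glrx3, an iron chaperone (-0.17, SE 0.08, edgeR adjusted p = 0.36). Of mitochondrial iron and iron-sulfur assembly 31 were tested, 9 lay below 0 and the median was 0.02. Slc25a37, a mitochondrial iron importer, stood at -0.33 (SE 0.12, edgeR adjusted p = 0.222) and Lyrm4, an assembly factor, at 0.26 (SE 0.10, edgeR adjusted p = 0.237). Neither list held a call with the set as a term.

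**Figure D4:**
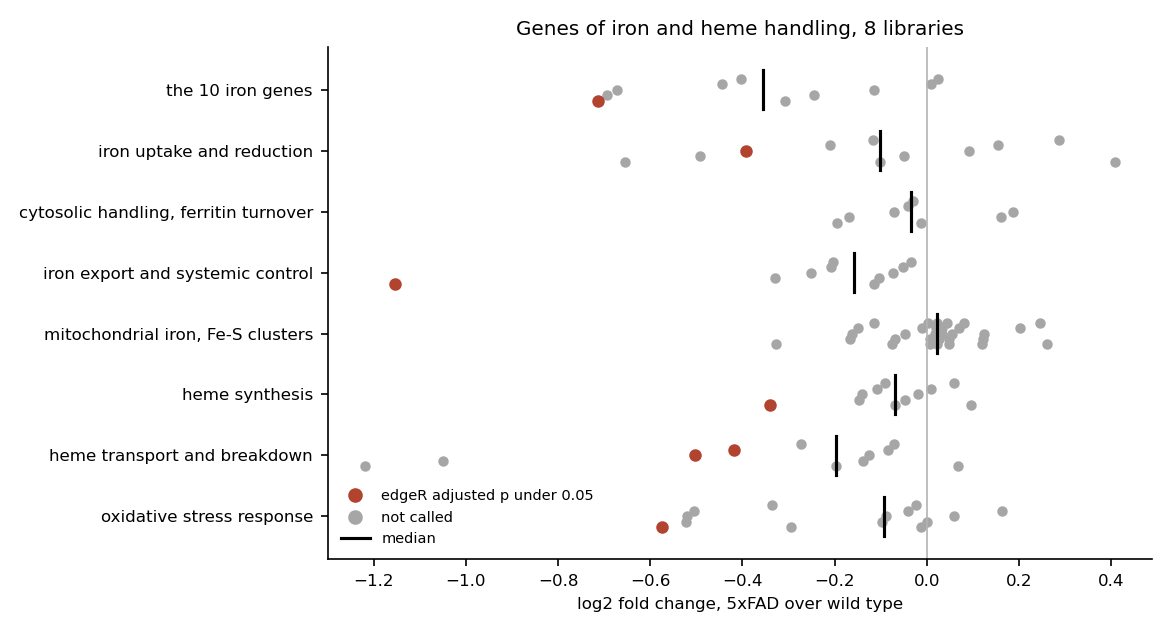
Log2 fold change of 5xFAD over wild type for each tested gene (points) of the 10 iron genes and 7 lists of iron and heme handling, over all 8 libraries. Coloured points passed edgeR at an adjusted p under 0.05 and black bars mark medians. The called genes all lie below 0, Heph the lowest at -1.15, and the list of mitochondrial genes is centred at 0.02.

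The genes whose levels followed Trf most closely were ranked by the smaller of 2 Pearson r of log2(CPM + 0.5), over the 6 p75 libraries and the 8 libraries of the 5xFAD table, among 9512 genes. These r are descriptions, and libraries of a genotype and set share much of their variation. Trf was selected on its fall in the p75 knockout, so r over the p75 libraries favours genes that fell there too. The closest were Crispld1 (0.97 and 0.978), Pcdh19, a protocadherin (0.956 and 0.978), Lyz2, lysozyme of myeloid cells (0.919 and 0.953), Spp1, osteopontin (0.893 and 0.991), and Afap1, an actin-binding protein (0.951 and 0.888). Lyz2 is also among the 13 macrophage markers. Spp1 stood at 541, 536, 3148 and 2415 CPM in 5xFAD and at 5555, 5123, 4972 and 3522 CPM in wild type, lowest, as Trf was, in 5xFAD replicates 1 and 2. Of the iron genes Cp ranked nearest, at 216 of 9512, with r of 0.496 over the p75 libraries and 0.957 over the 5xFAD table. Aco1 had r of -0.811 in the p75 libraries and 0.71 in the 5xFAD table, and ranked 9212.

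Of the 10 genes 9 passed the filter on low counts in the p75 table, and Slc40a1 did not. Of the 9 tested 0 were called, beside 0.0% of all genes. The count was also 0 with DESeq2, beside 0.00841% of all genes higher and 0.0421% lower, with the replicate number as a block or replicate 3 as a term, beside 0.00841% lower each, and within replicates 1 and 2, beside 0.0499% lower. Since this contrast chose Trf, nothing is read from these counts. Trf stood at 37.9, 26.2 and 35.4 CPM in the p75 knockout and at 80.3, 98.9 and 93.7 CPM in the floxed libraries, or 182, 124 and 211 counts in the knockout and 410, 536 and 567 counts in floxed. All knockout libraries lay below all floxed ones, and this is the value that was known when the genes were chosen. The knockout mean was 36.5% of the floxed mean and the log2 fold change -1.40 (SE 0.31). By replicate number the log2 ratios were -1.07, -1.90 and -1.39, so that replicate 3 did not stand apart for Trf. Groups that did not overlap were seen for 6.1% of all genes, 3.92% lower and 2.18% higher, and among the iron genes for Trf, lower, and Aco1, higher.

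Aco1 stood at 35.0, 31.9 and 45.1 CPM in the knockout and at 26.2, 23.1 and 17.3 CPM in floxed, with a log2 fold change of 0.82 (SE 0.34). Tfrc stood at 8.75, 11.0 and 12.4 CPM in the knockout and at 25.7, 23.2 and 6.44 CPM in floxed. Floxed replicate 3 was the lowest of all, so the log2 ratio was -1.50 and -1.05 in replicates 1 and 2 but 0.89 in replicate 3. Cp stood at 107, 168 and 92.9 CPM in the knockout and at 260, 312 and 108.5 CPM in floxed, a log2 fold change of -0.81 (SE 0.45), and the low floxed value was again that of replicate 3. Within replicates 1 and 2 the log2 fold changes were -1.41 (SE 0.27) for Trf, -1.23 (SE 0.36) for Tfrc, -0.97 (SE 0.26) for Cp and 0.52 (SE 0.28) for Aco1.

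Hmox1 separated replicate 3 from the others in both groups. It stood at 21.7, 34.0 and 540.2 CPM in the knockout and at 37.0, 17.0 and 449 CPM in floxed, so replicate 3 was the highest library of each group. With genotype in the model, replicate 3 was above the others by 4.25 on the log2 scale (SE 0.30, edgeR adjusted p = 1.91e-05). Ireb2 was lower in replicate 3, with a log2 difference of -1.06 (SE 0.21, edgeR adjusted p = 0.00426), at 166, 145 and 65.1 CPM in the knockout and 137.5, 123 and 62.95 CPM in floxed. Cp was lower there too, at -0.88 (SE 0.28, edgeR adjusted p = 0.0341). The log2 fold change of genotype was 0.27 (SE 1.47) for Hmox1 and 0.28 (SE 0.44) for Ireb2. In the same libraries satellite glia markers summed to 2284, 2079 and 465 CPM in the knockout and to 2179, 2304 and 361.5 CPM in floxed. They were lowest in replicate 3 of both groups. So were Schwann cell markers, at 6002 CPM in the knockout and 8004 CPM in floxed, and fibroblast markers, at 496 and 613 CPM. Endothelial markers were highest in replicate 3 of both groups, at 830 and 784 CPM. The part of any of these cells in these values was not tested.

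The ferritin chains were abundant in every p75 library. Fth1 stood at 5138, 8115 and 6757 CPM in the knockout and at 5792, 6921 and 6875 CPM in floxed, and Ftl1 at 5551, 9955 and 7199 CPM in the knockout and at 6691, 7967 and 7147 CPM in floxed. The knockout range enclosed the floxed range in each, with log2 fold changes of 0.09 (SE 0.36) and 0.12 (SE 0.37). These values may be understated, since the largest count of the p75 table was 65469 and none of its values exceeded 65536, the number of tags of 8 bases, whereas 54 values of the 5xFAD table did. Fth1 reached 37.6% to 63.5% of that number and Ftl1 40.7% to 71.9%. Counts corrected for such a ceiling, added after the data were seen, gave 0.05 for Fth1, 0.14 for Ftl1 and -1.42 for Trf. Whether the counts are tags with a ceiling is not given in the sources used here.

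Slc11a2 stood at 11.7 to 17.1 CPM in the knockout and at 14.04 to 17.2 CPM in floxed, with a log2 fold change of -0.10 (SE 0.39). Slc40a1 rested on few counts, with 7, 3 and 28 in the knockout and 4, 5 and 53 in floxed, the larger ones in replicate 3 of both groups. Of the 7 other lists 0 genes were called in the p75 table, where the fit also called 0% of simulated 4-fold changes. Macrophage markers summed to 40.8, 8.67 and 55.9 CPM in the knockout and to 66.6, 149.6 and 133 CPM in floxed. This was lower in every knockout library, as Trf was. Of the macrophage markers tested 5 of 6 had a log2 fold change below 0 (median -1.83). So did 8 of 8 fibroblast (-0.79), 7 of 8 endothelial (-0.58) and 7 of 8 mural markers (-0.48). For neurons it was 7 of 13, for satellite glia 6 of 10 and for Schwann cells 8 of 13. The part of any of these cells in the Trf values was not tested.

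**Figure D5:**
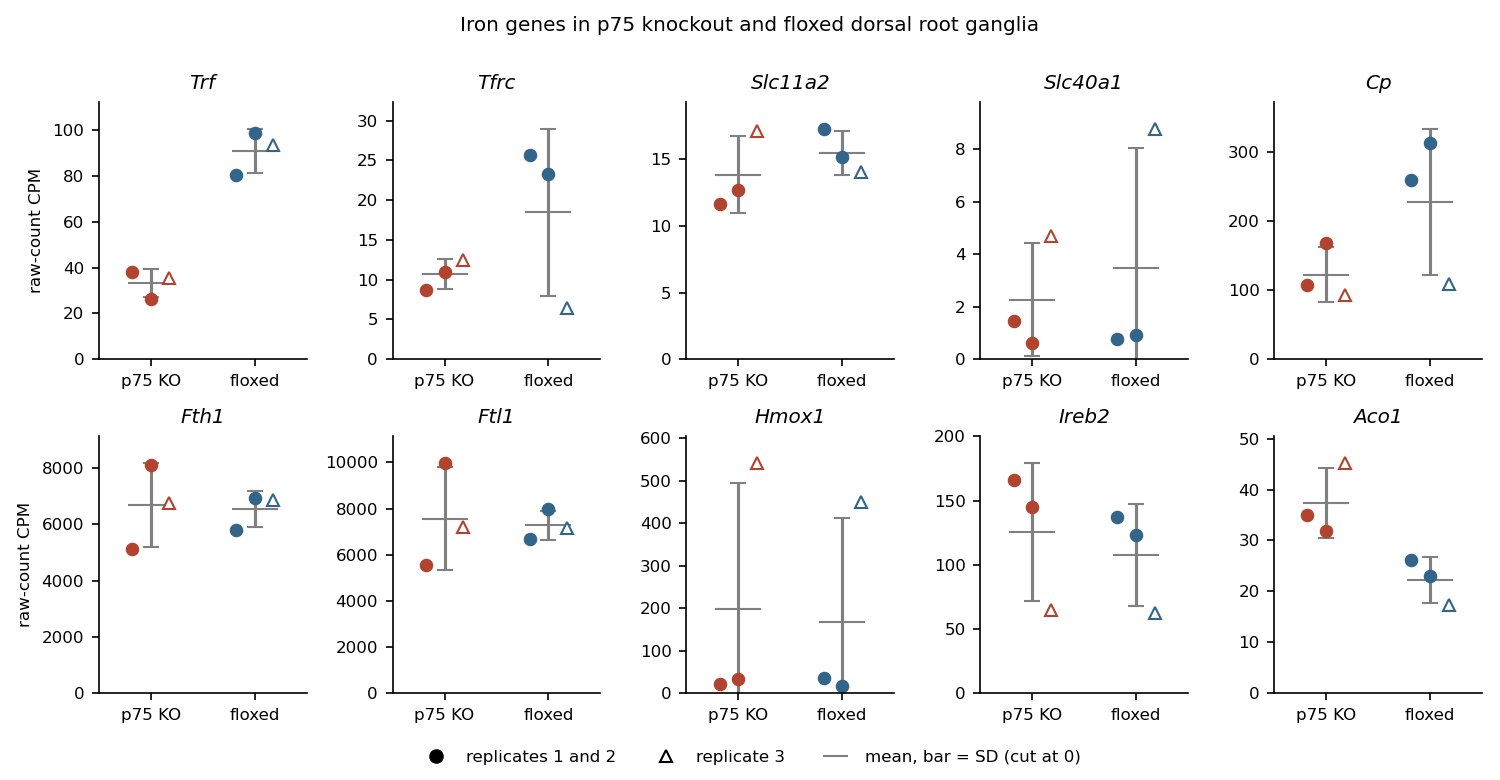
Raw-count CPM of the 10 iron genes in 3 libraries of p75 knockout ganglia (left in each panel) and 3 of floxed ganglia (right). Filled circles are replicates 1 and 2, the open triangle is replicate 3, and grey marks the mean with its SD. Trf lies lower and Aco1 higher in the knockout without overlap, while Hmox1 reaches 540.2 and 449 CPM in replicate 3 of the groups.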

How the data were processed

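RNA sequencing of 14 libraries was analysed from 2 deposited tables of counts, which the authors gave as whole numbers per gene with unequal library totals. The submitters' processing notes name the build GRCm39; aligner and counter: not given in the sources used here. Groups came from titles and genotypes; the knockout columns, named P75-Adv, were matched to knockout samples by number and by elimination.

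Each table was fitted alone with edgeR 4.0.16 in R 4.3.3: filterByExpr, TMM scaling, robust quasi-likelihood test and Benjamini-Hochberg adjustment over all genes, at 0.05. Genes tested numbered 11890 (p75) and 15845 (5xFAD). SE were derived from the F statistic. CPM used raw totals, and permutations used log2(CPM + 0.5). DESeq2 1.42.0 and limma-voom (limma 3.58.1), other scalings and filters, the replicate block, sets of replicates and left-out libraries were alternatives. The code was tested on simulated data with changes set in genes of at least 5 CPM. For the p75 table edgeR called 0% of 99 genes changed 2-fold and 0% of 100 changed 4-fold. For the 5xFAD table it called 91% and 94% of 100 each.

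Members and lists were chosen with earlier results of these data known. Named were the 10 genes, the called genes of each list (otherwise those with the 2 smallest p) and the 5 most like Trf; genes called with the set as a term were named after their values were seen. Deviations of libraries of equal number correlated by 0.348, 0.312 and 0.587 in the p75 table. In the 5xFAD table they correlated by 0.139, 0.35, 0.451 and 0.100. Replicates 1 and 2 correlated across numbers too. Knockout replicate 1 with floxed replicate 2 gave 0.4495, and 5xFAD replicate 1 with wild-type replicate 2 gave 0.3804. 5xFAD replicate 4 with wild-type replicate 3 gave 0.4244, but 5xFAD replicate 3 with wild-type replicate 4 gave 0.01956. Pairs by number therefore cannot be told from the sets, and the block is an alternative fit only. Lengths and elements came from GENCODE M21, of an older build, so coordinates are those of GRCm38 alone. Levels per kb were not set between genes in the p75 table, whose library type is not given.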

Additional observations from a re-analysis of the deposited data

Results flagged for a closer look

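The effect of 5xFAD differed between the sets of replicates for 3 of the 10 genes, by a test of genotype by set that called 1.19% of all genes. The effect in replicates 3 and 4 minus that in replicates 1 and 2 was 1.28 on the log2 scale for Trf (edgeR adjusted p = 3.68e-06), 1.56 for Cp (edgeR adjusted p = 0.00732) and 0.65 for Hmox1 (0.6537 before rounding, edgeR adjusted p = 0.00501). The test was added after the data were seen, and the labels do not say what the sets are.

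Slc40a1 in wild-type replicate 3, at 22.2 CPM, stood apart from the other 3 wild-type libraries, with a gap of 0.919 of the group's range. It was the 1 such case among 20 groups of 4 libraries checked, and chance gives about 1 in 20.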

How the results depend on the processing

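Of the 10 iron genes, 1 was called in 5xFAD ganglia, Slc40a1. The count was also 1 with DESeq2 size factors, upper-quartile scaling, library totals, limma-voom and a mean of at least 5 CPM. It was 3 with DESeq2 (Fth1, Hmox1 and Slc40a1), 2 with no filter, 5 with the set as a term, 7 in replicates 1 and 2 alone and 0 in replicates 3 and 4 alone. Leaving out each library gave 0 to 1. With the replicate number as a block it was 3 (Fth1, Ftl1 and Slc40a1), beside 3.6% of all genes lower, so the block adds Fth1 (-0.39, edgeR adjusted p = 0.00961) and Ftl1 (-0.24, edgeR adjusted p = 0.0294). In the p75 table the count was 0 in every setting, the block included. Small values near 0 changed sign. Leaving out each library gave -0.0221 to 0.0588 for Slc11a2, below 0 without 5xFAD replicate 3 or 4 or wild-type replicate 1 or 2. It gave -0.0196 to 0.0705 for Ireb2, below 0 without 5xFAD replicate 3 or 4 or wild-type replicate 2, and Ireb2 was -0.0183 in replicates 1 and 2 alone. Cp was 0.12 in replicates 3 and 4 alone. The cause was not tested. Over all genes, 570 were called in the 5xFAD table, 1028 with DESeq2, 1622 with the block, 1866 with the set as a term, and 237 to 516 when a library was left out. In the p75 table edgeR called 0 (140 at an unadjusted p under 0.05), DESeq2 6 and edgeR with the block 1. The common dispersion was 0.3 (p75) and 0.023 (5xFAD), so smaller changes can be shown in the 5xFAD table. In simulated p75 data 0% of 4-fold changes were called, so a count of 0 there does not show absence of change.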
